A study of Mus musculus with 24 samples.

Results

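A set of 10 genes of the ubiquitin ligase machinery of muscle was followed in the gastrocnemius of 24 mice: the F-box genes Fbxl22, Fbxo32 and Fbxo40, the TRIM genes Trim63 and Trim54, the ASB genes Asb2, Asb5, Asb11 and Asb15, and the transcription factor gene Foxo1. They were found on the arrays by gene name or by the current symbol of the probe's accession, which gave 17 of the 41174 probes. Of these, 14 probes, covering all 10 genes, were among the 15958 probes (10651 genes) bright enough to be compared. Fbxl22, Asb5 and Fbxo32, around which the set was built, were selected on the log2 ratios of these same arrays: Fbxl22 for its difference between cHF+F and each of the other groups, Asb5 for its difference between cHF+ROSI and cHF, and Fbxo32 for the size of its change under cHF+ROSI. Their differences are therefore given as a description with no test, whereas the other 7 members are given with their test. These 7 were also chosen with earlier results of these data known.

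The study asked how n-3 LC-PUFA and a low dose of rosiglitazone, a thiazolidinedione drug used against diabetes, act on skeletal muscle during high-fat feeding. Male C57BL/6N mice, 3 months old at the start, received for 8 weeks a corn-oil-based high-fat diet with 35% lipids (cHF, 8 mice), the same diet with 15% of its lipids replaced by a concentrate containing 46% DHA and 14% EPA (cHF+F, 8 mice), or the high-fat diet with rosiglitazone at 10 mg per kg of diet (cHF+ROSI, 8 mice). All animals were fasted for 10 hours and were then re-fed Chow overnight before dissection. RNA of 1 mouse was labelled with Cy5 on each array and set against a common pool in Cy3, so that a level is the log2 ratio of Cy5 over Cy3 and a difference of 1 is a doubling.

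Protein that is to be degraded by the proteasome is tagged with ubiquitin through a chain of E1, E2 and E3 enzymes, of which the E3 ligase selects the substrate. F-box proteins serve as the substrate receptors of cullin 1 ligases, ASB proteins carry a SOCS box and serve cullin 5 ligases, and the TRIM proteins of muscle (MuRF1, encoded by Trim63, and MuRF3, encoded by Trim54) hold a RING domain of their own. Fbxo32 (atrogin-1) and Trim63 are the classical atrophy genes of muscle: FOXO transcription factors, which insulin signalling through AKT keeps out of the nucleus, activate both of them during fasting.

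Each of the 8 slides held 1 array of each diet, always in the same place for a diet, so that diet and place cannot be told apart. In Cy5, 30.4% to 61.3% of the spots were well above background on 23 arrays and 91.1% on the array of cHF+ROSI mouse 4, and the arrays of slides 1 to 3 were dimmer. On the array of cHF+ROSI mouse 3 the 320 brightest probes had a median log2 ratio of -0.7, and on that of cHF+ROSI mouse 2 of -0.25, against -0.14 to 0.1 on the other 22 arrays. Of the members only Trim54, brighter than 99.4% of the kept probes, lies among these brightest probes. The probes of Trim63, Fbxo32 and Asb2 were brighter than 97.5%, 96.1% and 96%. Without cHF+ROSI mouse 3 the difference between cHF+ROSI and cHF went from -0.15 to -0.051 for Trim54 and from -0.43 to -0.37 for Trim63. For Asb2 it went from -0.26 to -0.24, and for Fbxo32 it stayed at -0.58. All 10 skeletal muscle markers, among them Acta1 and Ckm, were well above background on every array. In whole muscle, fewer cells of a type and less RNA per cell cannot be told apart.

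The promoters of 9 of the 10 genes were found in RefSeq's table of mouse starts (build GRCm38.p6), as 13 windows of 250 bases before a start, and Fbxo32 had no entry. Printed here are those of Fbxl22 and Asb5, which were singled out by these arrays, and of Trim63 and Asb2, whose levels went together in single mice as described further on. Capitals mark matches, on either strand, of the FOXO site GTAAACA, the insulin response sequence CAAAACA and the E-box CAGCTG. The 4 windows are chr9:66514594-66514843, minus strand, for Fbxl22, chr8:54550081-54550330, plus strand, for the first start of Asb5, chr4:134314870-134315119, plus strand, for Trim63, and chr12:103356002-103356251, minus strand, for the first start of Asb2.
Fbxl22: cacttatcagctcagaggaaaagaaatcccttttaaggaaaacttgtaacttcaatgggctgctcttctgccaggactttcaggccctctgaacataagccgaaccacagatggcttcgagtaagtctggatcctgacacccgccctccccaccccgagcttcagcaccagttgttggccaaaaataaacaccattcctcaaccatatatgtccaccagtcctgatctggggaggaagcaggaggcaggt
Asb5: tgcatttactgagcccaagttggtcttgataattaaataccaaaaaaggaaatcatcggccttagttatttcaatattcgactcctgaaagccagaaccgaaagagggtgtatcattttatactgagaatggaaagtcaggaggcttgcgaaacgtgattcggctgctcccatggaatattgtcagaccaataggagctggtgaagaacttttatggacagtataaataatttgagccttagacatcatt
Trim63: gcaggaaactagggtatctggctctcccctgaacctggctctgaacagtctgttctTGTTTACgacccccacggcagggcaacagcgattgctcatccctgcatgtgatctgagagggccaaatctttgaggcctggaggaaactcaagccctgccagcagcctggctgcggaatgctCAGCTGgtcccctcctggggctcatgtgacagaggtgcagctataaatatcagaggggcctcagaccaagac
Asb2: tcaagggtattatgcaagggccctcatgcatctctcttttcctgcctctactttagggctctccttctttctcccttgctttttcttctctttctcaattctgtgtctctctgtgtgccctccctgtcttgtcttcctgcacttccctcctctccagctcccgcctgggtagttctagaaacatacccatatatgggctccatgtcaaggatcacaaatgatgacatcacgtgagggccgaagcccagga
The FOXO site stood in 1 of the 13 windows, that of Trim63, at bases -194 to -188 from the start, and in 3.17% of all 32851 windows of the same length. The same Trim63 window held an E-box at bases -72 to -67. E-boxes stood in 4 of the 13 windows (both of Fbxo40, those of Trim63 and Trim54) and in 13% of all windows. The insulin response sequence stood in none of the 13 and in 5.56% of all windows. A match is a description of letters, and no match says only that these letters are absent from the window.

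**Figure D1:**
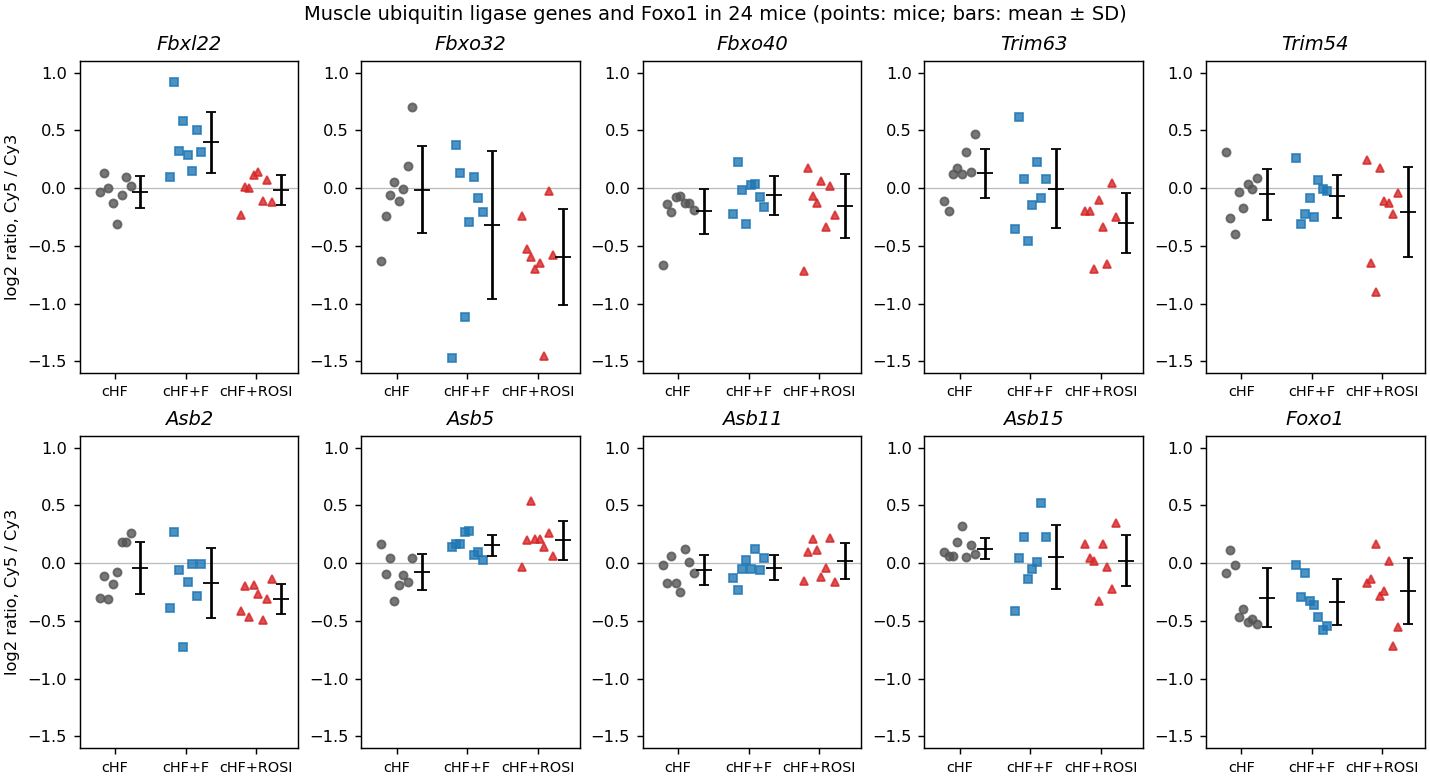
Log2 ratio of Cy5 over Cy3 (vertical axis) of the 10 genes in the mice of the 3 diets (horizontal axis). Each point is 1 mouse, and the bars give the mean ± SD of 8 mice. Fbxl22 stands higher in cHF+F. Fbxo32 and Trim63 reach lower in cHF+ROSI than in cHF, to -1.45 (mouse 6) and -0.7 (mouse 3). On the array of cHF+ROSI mouse 3 the brightest probes were low as a set. Fbxo32 reaches as low in 1 cHF+F mouse (-1.47), and the groups of every gene overlap.

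Fbxl22 encodes an F-box protein of the sarcomere's Z-disc, known in heart muscle for the turnover of α-actinin 2 and filamin C. Its log2 ratio ranged from -0.31 over a median of -0.016 to 0.13 in cHF, from 0.1 over 0.32 to 0.92 in cHF+F, and from -0.23 over 0.0049 to 0.14 in cHF+ROSI. In 7 of the 8 cHF+F mice it lay above the highest cHF mouse, while the cHF and cHF+ROSI mice covered nearly the same range. The mean difference between cHF+F and cHF was 0.43 ± 0.089 (SE, n = 8 per group), a fold of 1.35, and that between cHF+F and cHF+ROSI was 0.41 ± 0.089. The 8 differences within slides between cHF+F and cHF were all positive, from 0.14 to 0.79. Between cHF+ROSI and cHF the difference was 0.022 ± 0.089, positive in 3 of 8 slides.

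The probe behind these values was a dim one, at chr9:66312232-66312291 of build mm8. Its signal was 4.17 times background in Cy5 and 2.19 times in Cy3, and 11.9% of the kept probes were dimmer. On Cy5 alone, with no pool in the ratio, the cHF+F mice had a mean log2 signal of 8.15 ± 0.44 (SD, n = 8), the cHF mice 7.89 ± 0.48 and the cHF+ROSI mice 7.74 ± 0.25, which put the difference between cHF+F and cHF at 0.26 ± 0.19 (SE). The Cy3 pool, the same RNA on every array, differed by -0.15 in this comparison. The array of cHF mouse 3 had the highest pool signal, 7.8, and the highest Cy5 signal of the cHF mice, 8.87. With Agilent's processed signals, from which background had been subtracted, the difference between cHF+F and cHF was 0.71. In the authors' normalized table the log2 values were 7.67 ± 0.26 (SD) in cHF and 8.07 ± 0.34 in cHF+F. A second Fbxl22 probe, 5602 bases away, was too dim to be kept (1.77 times background in Cy5). Its mean log2 ratio was 0.046 ± 0.15 (SD, n = 8) in cHF, 0.037 ± 0.13 in cHF+F and -0.016 ± 0.094 in cHF+ROSI, so that it did not repeat the difference.

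**Figure D2:**
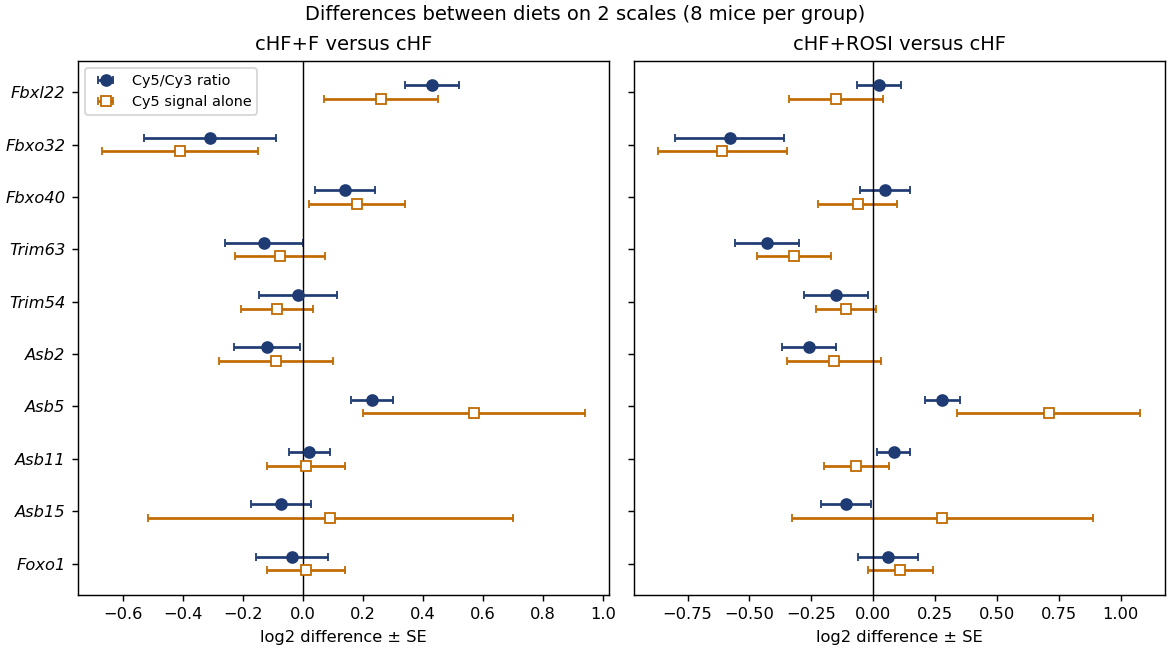
Difference of cHF+F (left) and cHF+ROSI (right) from cHF for each gene, in log2 units with the SE, 8 mice per group. Filled circles are the Cy5/Cy3 ratio and open squares the Cy5 signal alone. The 2 scales lie close for Fbxo32 (-0.58 and -0.61 under cHF+ROSI) and far apart for Asb5 (0.28 and 0.71).

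Fbxo32 encodes atrogin-1, the receptor for substrates such as eIF3f and MyoD. In cHF mice its log2 ratio ran from -0.63 over a median of -0.036 to 0.7, in cHF+F mice from -1.47 over -0.15 to 0.37, and in cHF+ROSI mice from -1.45 over -0.59 to -0.025. All 8 cHF+ROSI mice lay below the cHF mean, but only 3 of them below the lowest cHF mouse. The difference of cHF+ROSI from cHF was -0.58 ± 0.22 (SE), a fold of 1.5, with the same sign in 7 of 8 slides, and Cy5 alone gave -0.61 ± 0.26. For cHF+F the difference from cHF was -0.31 ± 0.22, negative in 5 of 8 slides. The latter value rested on cHF+F mice 1 and 4, at -1.47 and -1.12, and was -0.14 without the former, -0.19 without the latter and -0.2 without cHF mouse 8. The cHF+F mean exceeded that of cHF+ROSI by 0.28 ± 0.22, and this difference was 0.15 without cHF+ROSI mouse 6, 0.18 without cHF+F mouse 2 and 0.44 without cHF+F mouse 1. On slides 4 to 8 alone, a subset chosen after the data were seen, the difference between cHF+ROSI and cHF was -0.85 ± 0.24. That between cHF+F and cHF was -0.49 ± 0.24 in this subset.

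Mice of one diet differed widely in Fbxo32. The SD within groups was 0.49, larger than that of 98.7% of the kept probes, whose median SD was 0.15. For Trim63 the SD within groups was 0.28, above 93.6% of the probes, and for Asb5 it was 0.14, above 47.3%.

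Fbxo40 encodes a muscle F-box protein known to target IRS1, the docking protein of the insulin and IGF1 receptors. Its log2 ratio lay between -0.67 and -0.068 in cHF, between -0.31 and 0.23 in cHF+F, and between -0.72 and 0.17 in cHF+ROSI. The groups overlapped throughout, and the lowest mouse in cHF and in cHF+ROSI was the one on slide 1. Relative to cHF the difference of cHF+F was 0.14 ± 0.1 (limma, adjusted p = 0.899) and that of cHF+ROSI from cHF was 0.048 ± 0.1 (limma, adjusted p = 0.996). A second kept probe, 841 bases away, gave 0.028 ± 0.052 and -0.032 ± 0.052.

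Trim63 encodes MuRF1, a ligase for thick-filament and other sarcomere proteins. In cHF mice its log2 ratio ran from -0.2 over a median of 0.13 to 0.47, in cHF+F mice from -0.46 over -0.007 to 0.62, and in cHF+ROSI mice from -0.7 over -0.23 to 0.046. In 6 of the 8 cHF+ROSI mice it lay below the lowest cHF mouse, whereas the cHF+F mice reached above the highest and below the lowest cHF mouse. Between cHF+ROSI and cHF the difference was -0.43 ± 0.13, negative in 8 of 8 slides (range -0.97 to -0.0024), with an unadjusted p of 0.00247 and an adjusted p of 0.996 by limma, so that it was not called. With the slide as a block the limma p was 0.00472 unadjusted and 0.342 adjusted. Without cHF+ROSI mouse 3, the lowest of its group at -0.7, the difference was -0.37, with a limma p of 0.00748 unadjusted. On Cy5 alone it was -0.32 ± 0.15, with a limma p of 0.0454 unadjusted. For cHF+F the difference of Trim63 from cHF was -0.13 ± 0.13 (limma, adjusted p = 0.938). It was -0.32 ± 0.13 on slides 4 to 8 alone (limma, unadjusted p = 0.026, adjusted p = 0.634). That subset was chosen after the data were seen, so its p is not that of a planned test. The difference was -0.067 without cHF+F mouse 4, -0.082 without cHF+F mouse 1, -0.083 without cHF mouse 8 and -0.22 without cHF+F mouse 2. Between cHF+F and cHF+ROSI it was 0.3 ± 0.13 (limma, unadjusted p = 0.0284, adjusted p = 0.724), with an unadjusted p of 0.072 without cHF+ROSI mouse 3.

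The probe for these values lay at chr4:133601186-133601245 of build mm8. A second kept Trim63 probe started 11806 bases upstream of it and was matched to the gene through the accession of a cDNA clone. The 2 probes did not vary together: after group means were removed their log2 ratios had a correlation of 0.00211 over the 24 arrays, whereas that of the 2 Foxo1 probes, 3106 bases apart, was 0.9. For the upstream probe the difference of cHF+ROSI from cHF was -0.26 ± 0.24 and that of cHF+F from cHF was 0.075 ± 0.24. Its SD within groups was 0.53, larger than that of 99% of the probes, and its cHF+ROSI value on slide 1 stood at 1.3, far above the next at 0.01.

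Trim54 encodes MuRF3, which binds microtubules and the sarcomere. Its log2 ratio lay between -0.4 and 0.31 in cHF, between -0.31 and 0.26 in cHF+F, and between -0.9 and 0.24 in cHF+ROSI, the lowest value being that of the array of cHF+ROSI mouse 3. The difference of cHF+ROSI from cHF was -0.15 ± 0.13 (limma, adjusted p = 0.996) and was -0.051 without that array and -0.087 without that of cHF+ROSI mouse 2. For cHF+F it was -0.017 ± 0.13 (limma, adjusted p = 0.997). Across the arrays Trim54 followed the median of the bright probes (r = 0.757, 24 arrays), and a loess of narrower span left an r of 0.177.

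Asb2 encodes the cullin 5 receptor for filamins. Its log2 ratio ran from -0.31 over a median of -0.089 to 0.26 in cHF, from -0.73 over -0.11 to 0.27 in cHF+F, and from -0.49 over -0.29 to -0.14 in cHF+ROSI. All 8 cHF+ROSI mice were below the cHF mean, and 3 of them were below the lowest cHF mouse. The difference of cHF+ROSI from cHF was -0.26 ± 0.11, negative in 8 of 8 slides (range -0.67 to -0.0082), with a limma p of 0.0217 unadjusted and 0.996 adjusted, and thus not called. With the slide as a block the limma p was 0.0119 unadjusted and 0.407 adjusted, and on Cy5 alone the difference was -0.16 ± 0.19, with a limma p of 0.402 unadjusted. In cHF+F relative to cHF the difference of Asb2 was -0.12 ± 0.11 (limma, adjusted p = 0.927). It was -0.31 ± 0.12 on slides 4 to 8 alone (limma, unadjusted p = 0.0235, adjusted p = 0.618), a subset chosen after the data were seen and not a planned test. The difference was -0.045 without cHF+F mouse 4 and -0.19 without cHF+F mouse 2. A further probe that carries the name Asb2 in the scanner files has the accession of an antibody fragment and a position on another chromosome, and was counted among the 17 but not read as Asb2.

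**Figure D3:**
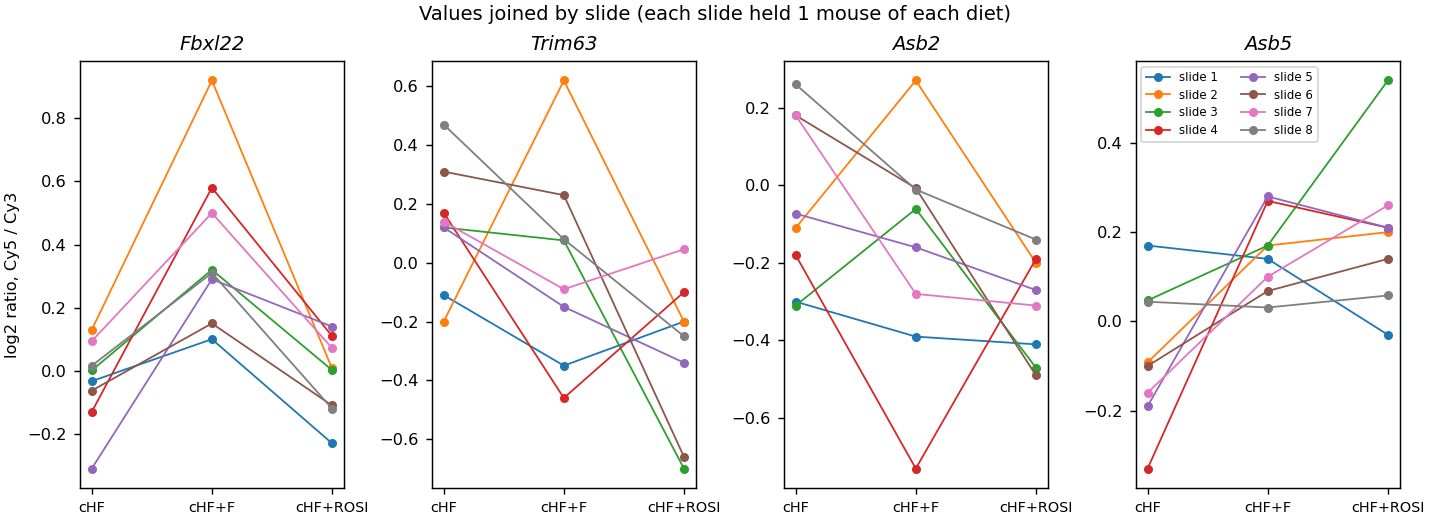
Log2 ratio of Cy5 over Cy3 (vertical axis) of 4 genes in the 3 diets (horizontal axis), with the 3 arrays of each slide joined by a line. Fbxl22 is higher in cHF+F than in cHF on all 8 slides, and Trim63 and Asb2 are lower in cHF+ROSI than in cHF on all 8 slides. Asb5 is higher in cHF+ROSI than in cHF on 7 of 8 slides.

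Asb5 encodes a SOCS-box protein of skeletal muscle. Its log2 ratio ran from -0.33 over a median of -0.1 to 0.17 in cHF, from 0.031 over 0.15 to 0.28 in cHF+F, and from -0.03 over 0.2 to 0.54 in cHF+ROSI. All 16 mice of the 2 supplemented diets lay above the cHF mean, and 5 cHF+ROSI and 2 cHF+F mice lay above the highest cHF mouse. The difference of cHF+ROSI from cHF was 0.28 ± 0.071, positive in 7 of 8 slides (range -0.2 to 0.53), and that of cHF+F from cHF was 0.23 ± 0.071, positive in 6 of 8 slides. Both differences share the cHF mice, and between the 2 supplemented diets the difference was -0.045 ± 0.071.

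The single channels of Asb5 were far from stable between slides. The Cy3 pool was the same RNA on every array, yet its log2 signal for Asb5 was 11.33 to 11.49 on the 15 arrays of slides 4 to 8 and 7.84 to 11.3 on the 9 arrays of slides 1 to 3, the lowest being that of cHF mouse 3. The Cy5 signal of that array was 9.14, and that of all others was at least 11.63. Cy5 alone therefore gave a larger and less precise difference, 0.71 ± 0.37 for cHF+ROSI and 0.57 ± 0.37 for cHF+F. On slides 4 to 8, a subset chosen after the data were seen, the ratio gave 0.32 ± 0.074 for cHF+ROSI and 0.3 ± 0.074 for cHF+F. Agilent's processed signals gave 0.13 and 0.15 on all arrays.

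**Figure D4:**
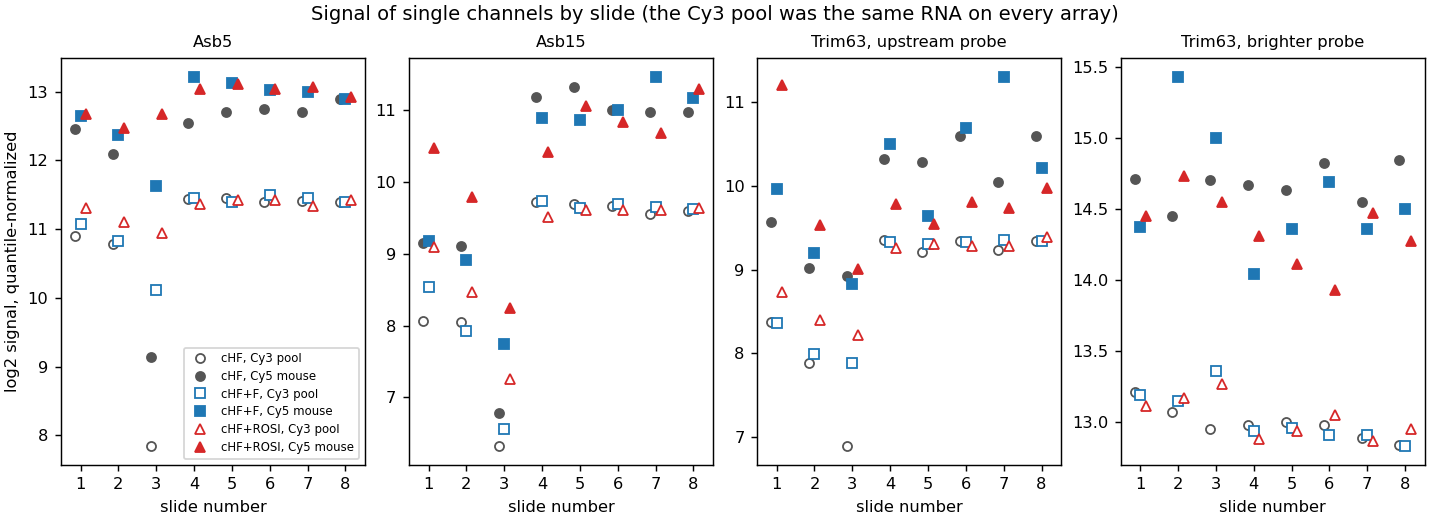
Quantile-normalized log2 signal of single channels (vertical axis) by slide number (horizontal axis) for the probes of Asb5 and Asb15 and both kept probes of Trim63. Open marks are the Cy3 pool, which was the same RNA on all arrays, and filled marks are the Cy5 signal of 1 mouse. The pool drops on slides 1 to 3 for Asb5 (lowest value 7.84), Asb15 (6.32) and the upstream Trim63 probe (6.89), and not for the brighter Trim63 probe (12.95 or more on these slides).

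Asb15, another SOCS-box gene of skeletal muscle, showed the same feature more strongly, with a pool signal of 9.51 to 9.73 on slides 4 to 8 and of 6.32 to 9.09 on slides 1 to 3. Its log2 ratio was 0.055 to 0.32 in cHF, -0.41 to 0.52 in cHF+F and -0.33 to 0.35 in cHF+ROSI, so that both supplemented groups spread to either side of the cHF mice. Relative to cHF, cHF+F differed by -0.073 ± 0.1 (limma, adjusted p = 0.961) and cHF+ROSI by -0.11 ± 0.1 (limma, adjusted p = 0.996). Asb11, whose SOCS-box product also belongs to cullin 5 ligases, had log2 ratios of -0.25 to 0.12 in cHF, -0.23 to 0.12 in cHF+F and -0.16 to 0.22 in cHF+ROSI. Its differences from cHF were 0.021 ± 0.068 (limma, adjusted p = 0.992) and 0.082 ± 0.068 (limma, adjusted p = 0.996), and the 95% intervals, -0.12 to 0.16 and -0.059 to 0.22, leave out a doubling or halving of this RNA.

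Foxo1 encodes a FOXO factor whose activity is set mainly by phosphorylation and location, which arrays do not measure. Its log2 ratio was -0.53 to 0.11 in cHF, -0.58 to -0.019 in cHF+F and -0.72 to 0.17 in cHF+ROSI, with medians of -0.44, -0.35 and -0.21. The groups overlapped, with a difference of -0.037 ± 0.12 between cHF+F and cHF (limma, adjusted p = 0.992) and of 0.059 ± 0.12 between cHF+ROSI and cHF (limma, adjusted p = 0.996). The second Foxo1 probe gave -0.033 ± 0.13 and 0.061 ± 0.13.

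Counted together, 4 of the 10 members were higher and 6 lower in cHF+F than in cHF, with a median difference of -0.027. Over all probes 49.6% were lower and the median was 0.00063. In cHF+ROSI relative to cHF, 5 members were higher and 5 lower, with a median of -0.042. Over all probes 54.7% were lower and the median was -0.0086. Both counts include Fbxl22, Asb5 and Fbxo32, which were selected for their differences. None of the 15958 probes passed an adjusted p of 0.05 by limma in any of the 3 comparisons, and the adjusted call rate of 0% is the background for the members. At an unadjusted p under 0.05, the calls over all probes were 6.86% (1094 probes) for cHF+F versus cHF, 4.7% (750) for cHF+ROSI versus cHF and 6.67% (1065) for cHF+F versus cHF+ROSI. Of the 7 members not singled out by these arrays, 0 reached it in cHF+F versus cHF, 2 in cHF+ROSI versus cHF (Trim63 and Asb2, both lower) and 1 in cHF+F versus cHF+ROSI (Trim63, higher). The 7 were chosen with earlier results of these data known, so their counts are not those of a set picked blind to these arrays. These counts moved with the processing. The first was 2 on slides 4 to 8 alone (Trim63 and Asb2, both lower), a subset chosen after the data were seen. With processed signals it was 1 (Fbxo40, higher). The second was 1 with processed signals and on Cy5 alone and 0 with median centring, and the third was 0 under 7 of 12 alternatives. Split by direction, the background was 2.85% higher and 4% lower for cHF+F versus cHF, 1.69% higher and 3.01% lower for cHF+ROSI versus cHF, and 4.02% higher and 2.65% lower for cHF+F versus cHF+ROSI.

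Within single mice, Fbxo32, Trim63 and Asb2 went up and down together. The log2 ratios of Fbxo32 and Trim63 had a Pearson r of 0.846 and a Spearman rho of 0.882 over the 24 mice. Within the diets r was 0.842 in cHF, 0.857 in cHF+F and 0.704 in cHF+ROSI (8 mice each), and it was 0.88 after slide means were removed. For Trim63 and Asb2 r was 0.835 and rho 0.797, with 0.671, 0.942 and 0.662 within the diets, and for Fbxo32 and Asb2 r was 0.764 and rho 0.725, with 0.741, 0.827 and 0.301. The cHF+F mice 1 and 4, lowest of their group in Fbxo32 at -1.47 and -1.12, were also the lowest in Trim63 at -0.35 and -0.46 and in Asb2 at -0.39 and -0.73. These 3 relations were picked after their values had been seen and are given without a test. Leaving out the 2 mice farthest from the median of the first gene gave 0.845, 0.796 and 0.774. The ratios of 1 array share a pool channel and a normalization, and all 3 probes are bright ones. With the narrower loess r was 0.879, 0.83 and 0.759. On Cy5 alone it was 0.723 for Fbxo32 and Trim63, but 0.156 for Trim63 and Asb2 and 0.395 for Fbxo32 and Asb2.

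**Figure D5:**
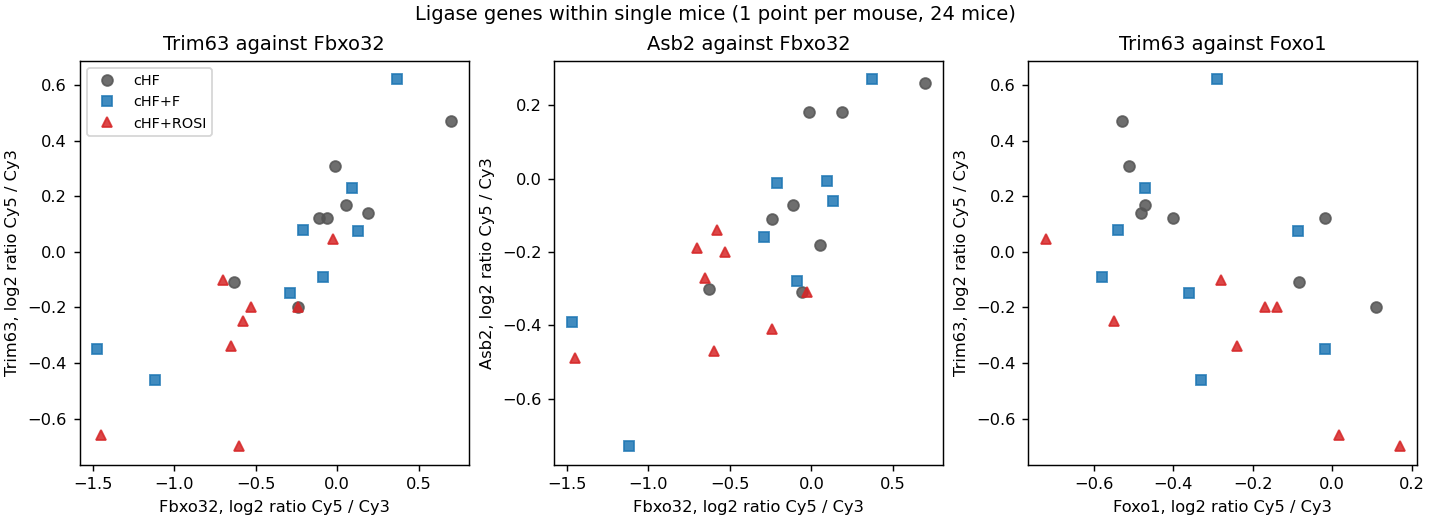
Log2 ratio of Cy5 over Cy3 of pairs of genes, with 1 point per mouse and a symbol per diet: Trim63 (left) and Asb2 (middle) against Fbxo32, and Trim63 against Foxo1 (right). The points of Trim63 and Fbxo32 lie along a rising line in each diet (r = 0.846 over 24 mice), and those of Trim63 and Foxo1 scatter along a falling one (r = -0.533).

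The relations of Foxo1 RNA with these 3 genes had a negative sign. Of its 9 relations with the other members, that with Trim63 was the largest, with an r of -0.533 (permutation p = 0.00739, adjusted over the 9 relations 0.0665) and a rho of -0.503 (permutation p = 0.0127, adjusted 0.081) over 24 mice. With Fbxo32 r was -0.473 (permutation p = 0.0197, adjusted 0.0886) and rho -0.469 (permutation p = 0.0222, adjusted 0.081), and with Asb2 r was -0.416 (permutation p = 0.0432, adjusted 0.13) and rho -0.455 (permutation p = 0.027, adjusted 0.081). None of the 9 thus passed the adjustment over all 24 mice. Within cHF, cHF+F and cHF+ROSI the r with Trim63 was -0.82, -0.182 and -0.82, and that with Fbxo32 was -0.653, -0.397 and -0.557. With group means removed r was -0.568 with Trim63, -0.489 with Fbxo32 and -0.419 with Asb2, with no test. The permutations, over all mice or within slides, moved values between diets, so that r holds differences between diets and the permuted values do not. Fbxo32 was selected for its change under cHF+ROSI, and its permutation p-values are therefore not independent of that selection. The 9 relations of the adjustment also include those with Fbxl22 and Asb5, which were selected on these arrays too. After slide means were removed, and with mice permuted within slides, r was -0.753 with Trim63 (permutation p = 0.00455, adjusted 0.0217) and -0.685 with Fbxo32 (permutation p = 0.00483, adjusted 0.0217). On Cy5 alone the r of Foxo1 with Trim63 was -0.312 (permutation p = 0.139, adjusted 0.312), smaller in size than that with Fbxo32, -0.574 (permutation p = 0.00312, adjusted 0.0281), and with Asb2, -0.462 (permutation p = 0.0227, adjusted 0.102). When cHF mouse 2 and cHF+ROSI mouse 3, which lay farthest from the median of Foxo1, were left out, r of the log2 ratios was -0.428 with Trim63 and -0.522 with Fbxo32. Foxo1 itself had an r of -0.575 with the median of the bright probes across the arrays, Trim63 of 0.36 and Fbxo32 of 0.0704, and the part of this in the relations was not tested. The other 6 relations had an r between -0.342 (Trim54) and 0.322 (Asb5), with adjusted permutation p-values of 0.227 or more.

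The genes whose log2 ratios were most like those of Fbxo32 over the 24 arrays, after group means were removed, were Retreg1 (an ER-phagy receptor; r = 0.907), Chac1 (which degrades glutathione; 0.845), Klhl38 (a kelch protein of muscle; 0.844), Pdcd7 (0.838) and Trim63 (0.811), out of 10443 genes compared. The difference of Chac1 from cHF was -0.79 in cHF+F and -0.095 in cHF+ROSI. Most like Fbxl22 were Uck2 (a uridine-cytidine kinase; r = 0.869), Relb (an NF-κB subunit; 0.805), Mrps18b (0.787), Slc38a7 (0.778) and D130020L05Rik (0.777). Their differences between cHF+F and cHF were -0.031 for Uck2 and 0.019 to 0.17 for the others, below the 0.43 of Fbxl22. Most like Asb5 were Diablo (0.727), Ublcp1 (0.719), Noc4l (0.684), Mrpl50 (0.679) and Trappc5 (0.672). A likeness of this kind is a description and carries no p.

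The rest of the ubiquitin system was compared together with FOXO factors and targets and reported substrates of the ligases. These lists, also chosen with earlier results of these data known, held 104 genes, of which 96 were bright enough. None passed an adjusted p of 0.05 by limma. At an unadjusted p under 0.05, 1 gene was higher and 4 were lower in cHF+F than in cHF, against 2.85% and 4% of all probes. All 4 lower genes were FOXO factors or targets. In cHF+ROSI relative to cHF 1 was higher and 9 were lower, against 1.69% and 3.01%. Between cHF+F and cHF+ROSI 3 were higher and 0 lower, against 4.02% and 2.65%. The median difference of the 96 was 0.0015, -0.0099 and 0.0097 in the 3 comparisons.

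Scaffolds and adaptors that carry the F-box and SOCS-box proteins, such as cullins and elongins, differed little. All 11 were kept, and their differences lay between -0.026 and 0.12 in cHF+F and between -0.1 and 0.11 in cHF+ROSI relative to cHF. In each comparison 0 of the 11 reached an unadjusted p of 0.05 by limma, against 4.7% to 6.86% of all probes. The 11 kept ASB genes outside the members likewise had 0 such genes, with differences between -0.091 and 0.12 from cHF.

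Among E1, E2 and ubiquitin genes (12 of 12 kept), the polyubiquitin gene Ubb was 0.32 ± 0.12 higher in cHF+F than in cHF+ROSI (limma, unadjusted p = 0.0126, adjusted p = 0.64). The E2 gene Ube2d2a was 0.11 ± 0.042 higher in cHF+F than in cHF (limma, adjusted p = 0.568) and 0.1 ± 0.042 higher than in cHF+ROSI (limma, adjusted p = 0.724). Among the other muscle ligases (23 of 26 kept), Klhl40, a cullin 3 adaptor of the thin filament, was 0.28 ± 0.1 higher in cHF+ROSI than in cHF (limma, unadjusted p = 0.00901, adjusted p = 0.996). Fbxo31 and Ubr4 differed by -0.24 ± 0.09 and -0.22 ± 0.085 (limma, adjusted p = 0.996 for each). Traf6, a RING ligase of cytokine signalling, differed by 0.12 ± 0.059 between cHF+F and cHF+ROSI (limma, adjusted p = 0.75). Of 7 kept deubiquitinases and p97, 1 reached an unadjusted p of 0.05, in cHF+ROSI relative to cHF, against 4.7% of all probes.

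Of 20 FOXO factors and targets, 18 were kept, and 4 of them were lower in cHF+F than in cHF at an unadjusted p under 0.05 (Pdk4, Becn1, Cited2 and Gabarapl1), against 4% of all probes. In cHF+ROSI relative to cHF 2 were lower, against 3.01%. Pdk4, the kinase that turns off pyruvate dehydrogenase in fasting, showed the largest difference, -1.09 ± 0.32 (limma, unadjusted p = 0.00187, adjusted p = 0.403), and it was -0.87 ± 0.32 in cHF+ROSI (limma, adjusted p = 0.996). The autophagy genes Becn1 and Gabarapl1 differed by -0.14 ± 0.045 and -0.36 ± 0.17 (limma, adjusted p = 0.473 and 0.703), and the coregulator Cited2 by -0.34 ± 0.15 (limma, adjusted p = 0.678). Map1lc3b, which encodes the autophagosome protein LC3, differed by 0.095 ± 0.044 between cHF+F and cHF+ROSI (limma, adjusted p = 0.74).

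All 14 genes listed as reported substrates were kept. Their RNA differences lay between -0.24 and 0.2 in cHF+F and between -0.28 and 0.11 in cHF+ROSI relative to cHF. In these comparisons 0 and 1 of them reached an unadjusted p of 0.05, against 6.86% and 4.7% of all probes. Actn2, which encodes the α-actinin 2 of the Z-disc, differed by -0.24 ± 0.12 between cHF+F and cHF, and Flnc by -0.086 ± 0.16, both named after their values were seen and given with no test. Ckm, the muscle creatine kinase, differed by 0.41 ± 0.21 between cHF+F and cHF+ROSI (limma, adjusted p = 0.752). Ckm, Tnni2 and Mylpf are also skeletal muscle markers, whose mean ratio was -0.9 on the array of cHF+ROSI mouse 3. The brightest probes of that array had a median of -0.7, and its part in the Ckm difference was not tested. These are RNA levels, and the arrays do not measure the proteins that the ligases degrade.

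Of the markers of fibre type and of other cells, 0 passed an adjusted p of 0.05 by limma. Over all probes, 49.6% were lower in cHF+F than in cHF and 54.7% in cHF+ROSI than in cHF. Of 10 slow fibre markers, 9 were lower in cHF+F than in cHF, 5 of them at an unadjusted p under 0.05, against 4% of all probes. Their median difference was -0.42, and their mean ratio ranged from -0.22 to 0.56 in cHF and from -0.95 to 0.17 in cHF+F. All 8 endothelial markers were lower in cHF+F (median -0.12) and 7 of 8 in cHF+ROSI (median -0.14). In each of these comparisons 3 of the 8 were lower at an unadjusted p under 0.05, against 4% and 3.01% of all probes. The 5 kept liver markers of 8 were all higher in both supplemented groups, with a median of 0.44 in cHF+F and 0.63 in cHF+ROSI, and their mean ratio ran from -2.63 to -0.54 in cHF, from -1.81 to 0.82 in cHF+F and from -2.62 to 1.36 in cHF+ROSI. Albumin was well above background on all 24 arrays and Ttr on 1. The medians of 7 kept adipocyte markers were -0.092 in cHF+F and 0.01 in cHF+ROSI, those of 6 macrophage markers -0.14 and -0.066, and those of 4 heart and smooth muscle markers 0.1 and 0.051. All 6 macrophage markers were lower in both supplemented groups, 1 of them at an unadjusted p under 0.05, in cHF+F. The skeletal muscle markers were lower in 9 of 10 cases in cHF+ROSI than in cHF, with a median of -0.13 and a lowest array at -0.9, that of cHF+ROSI mouse 3. Their part in the differences of the members was not tested.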

How the data were processed

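Gastrocnemius RNA of 24 mice was hybridised to 24 two-colour Agilent arrays, 8 per diet, with the mouse in Cy5 and 1 common pool in Cy3 and no dye swap. Per the file headers, the deposited scanner files hold spot intensity and local background of each channel, quantified with Feature Extraction 10.5.1.1 (the submitters' processing notes give 10.5.5.1), on mouse build mm8, together with processed intensity values that were background-subtracted and dye-normalized. The authors also deposited a table of log2 Cy5 values normalized against Cy3, with 20721 rows for 19387 probes and the same median of 8.99 in every column. Its 16 cHF and cHF+F columns served as an alternative, and 8 columns named for a combined diet, which match no sample used here, were not used.

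Median signals were corrected by normexp (offset 50), log2 ratios were normalized within arrays by loess (span 0.3), and replicate spots of the same probe were averaged, flagged spots excepted. Probes needed 4 arrays per group and a mean signal of at least 2 times background in both channels. Of the kept probes, 12577 were named through their accession, 2495 by the name in the files and 886 not at all. Where a gene had several kept probes, the brightest stood for it, and the others are given beside it. The 3 groups were compared in 1 limma model (version 3.58.1, R 4.3.3) without a block, two-sided, with Benjamini-Hochberg adjustment over all 15958 probes and a call at an adjusted p under 0.05. The script was tested on simulated data. The plain t-test of the study's methods was run as an alternative. Correlations used 100000 permutations (Python 3.11.15, numpy 2.4.6), with adjustment over 9 relations. Promoter windows came from RefSeq's GRCm38.p6 starts, and coordinates of probes are those of the files. Precision is limited by the number of arrays.

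Nothing in the labels says that replicate numbers pair mice of different diets. In the scanner files a number marks a slide, and the slide was tested as a block. All arrays were scanned on 1 day. The Cy3 channel alone gave 0 adjusted calls. The members, lists and rules for named genes were chosen with earlier results of these data known. Named genes were the 10 members, the 5 genes of the pathway lists with the smallest p in each comparison, substrates by range, and the 5 genes most like Fbxl22, Asb5 and Fbxo32. One gene that this rule names is not reported here. Actn2 and Flnc were named after their values were seen. Marker lists covered skeletal muscle, slow fibre, adipocyte, liver, endothelial, macrophage, and heart and smooth muscle genes.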

Additional observations from a re-analysis of the deposited data

Results flagged for a closer look

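In groups of 8 arrays a value was marked when its gap to the nearest other array took a larger share of the group's range than Dixon's 95% value allows, which chance does in about 1 of 20 groups. Of 42 groups of the 14 kept member probes, 5 were marked. Fbxo40 on the array of cHF mouse 1 stood at -0.67 in log2 ratio, with the next cHF mouse at -0.21. The second Fbxo40 probe was at -0.26 in cHF+ROSI mouse 1, with the next at -0.1. The upstream Trim63 probe was at 1.3 in cHF+ROSI mouse 1, with the next at 0.01, while the brighter Trim63 probe on the same array was at -0.2. Fbxo32 was at -1.45 in cHF+ROSI mouse 6, with the next at -0.7. Asb15 was at 0.32 in cHF mouse 5, with the next at 0.18. Of the 5 values, 3 were from arrays of slide 1.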

How the results depend on the processing

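None of the 7 tested members and none of the 96 pathway genes was called under any alternative run. Over all probes, cHF+F versus cHF gave 6 calls with the slide (the replicate number) as a block, 2 with mean spot signals, 3 without a filter and 13 with array weights, against 0, and 0 to 2 when single arrays were left out. Between cHF+F and cHF+ROSI the latter range was 0 to 2, and between cHF+ROSI and cHF no alternative gave any. By the methods' t-test, 1265, 755 and 938 probes had an unadjusted p under 0.05 and 0 an adjusted one. Pairs of arrays of 1 slide had a median r of 0.247 in their deviations from the group means (lowest -0.109, over 0.1 in 18 of 24 pairs), and 16 of 24 arrays correlated best with their own slide. The block changed no call of a member. With it the SE was 0.073 against 0.13 for Trim54, 0.069 against 0.1 for Fbxo40 and 0.072 against 0.12 for Foxo1. For Asb5 it was 0.072 against 0.071, and for Asb15 it stayed at 0.1. The limma p with the block was 0.0526 unadjusted and 0.53 adjusted for Trim54 in cHF+ROSI versus cHF. For Fbxo40 in cHF+F versus cHF the limma p was 0.0532 unadjusted and 0.421 adjusted.

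Fbxl22, Fbxo32 and Asb5 were selected for their differences in these same arrays, so a kept sign in refits of the same data is no separate support. Fbxl22 was higher in cHF+F than in cHF under all 13 alternatives (0.26 to 0.71) and all 24 fits without 1 array (0.36 to 0.48). Its second, dimmer probe did not repeat this difference. Against cHF+ROSI it lay between 0.35 and 0.84, the latter with processed signals. Fbxo32 and Trim63 were lower in cHF+ROSI than in cHF under all 12 alternatives, by -0.85 to -0.53 and -0.5 to -0.29. Asb5 was 0.13 to 0.71 higher in cHF+ROSI, the lowest with processed signals and the highest on Cy5 alone, where cHF+F gave 0.57. Correlations with Foxo1 passed the adjusted threshold in 1 of 9 relations on Cy5 alone and in 2 after slide means were removed, against 0. The relation that passed on Cy5 alone was that with Fbxo32, which was selected on these arrays, so it is no separate support. Those that passed after slide means were removed were with Fbxo32 and Trim63. That with Trim54 turned to 0.111 on Cy5 alone and 0.042 with a loess span of 0.1.

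The small differences turned sign as follows. Fbxl22 in cHF+ROSI versus cHF, at 0.022, was -0.15 on Cy5 alone, -0.13 with processed signals, -0.048 with median centring and -0.016 to 0.053 without single arrays. Asb5 in cHF+F versus cHF+ROSI, at -0.045, was 0.015 with processed signals and without background correction and -0.078 to 0.004 without single arrays. On Cy5 alone, Asb11 was -0.068 between cHF+ROSI and cHF, with 0.078 between the 2 supplemented diets, Foxo1 0.01 (cHF+F versus cHF), Fbxo40 -0.063 (cHF+ROSI versus cHF), and Asb15 0.091, 0.28 and -0.19. With processed signals, Asb15 was 0.14 and 0.043 relative to cHF, and Trim54 -0.006 (cHF+F versus cHF+ROSI). With median centring, Asb11 was -0.066 (cHF+F versus cHF) and Trim54 -0.047 (cHF+F versus cHF+ROSI). Without background correction, Trim54 and Asb15 were -0.0087 and -0.014 (cHF+F versus cHF+ROSI). With array weights Trim54 was 0.015, and in the authors' table Foxo1 was 0.02 (cHF+F versus cHF). Without slides 1 to 3, an alternative chosen after seeing the data, Asb11 was 0.018 (cHF+F versus cHF+ROSI), Foxo1 0.024 (cHF+F versus cHF) and Fbxo40 -0.0033 (cHF+ROSI versus cHF). Without single arrays, Asb11 ran from -0.0055 to 0.048, Trim54 from -0.066 to 0.036 and Foxo1 from -0.082 to 0.022 (cHF+F versus cHF), Fbxo40 from -0.019 to 0.13 (cHF+ROSI versus cHF) and Asb15 from -0.033 to 0.1 (cHF+F versus cHF+ROSI). The cause was not tested. The authors' table could give cHF+F versus cHF only.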
